A study of Saccharomyces cerevisiae with 48 samples.

Results

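Chromosomes I and IX of budding yeast (Saccharomyces cerevisiae) were followed through meiotic S phase as relative DNA copy number. The members were all listed positions whose chromosome number was 1 or 9 in the tables of the 6 strains, which gave 237 of 4568 positions. Chromosome I held 73 of them and chromosome IX 164, and the remaining 4331 positions lay on the other 14 chromosomes. By the last listed position, chromosome I was the shortest of the 16 (197.5 kb), and VI (267.5 kb), III (305 kb) and IX (432.5 kb) followed.

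The sequenced material was total DNA of synchronous meiotic cultures kept in 2% potassium acetate at 30 °C. There were 6 strains with 1 culture each, namely an ARS+ and an ars∆ strain of each of 3 backgrounds: wild type, DDK OP and tof1∆. ARS marks a replication origin, and the study is known to have deleted origins of chromosome III, not of I or IX, in the ars∆ strains. DDK OP stands for overproduction of the Dbf4-dependent kinase, which switches origins on, and tof1∆ cells lack Tof1, a protein that travels with the replication fork and binds this kinase there. All cultures were synchronized in the same way, the labels name no ploidy, and the altered genes were not checked here because no annotation of the build of the tables was used.

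Replication starts at origins that fire in a reproducible order, so DNA copied early is present in more copies than DNA copied late while S phase lasts. In yeast the DNA around centromeres is copied early and chromosome ends tend to be copied late. Small yeast chromosomes also recombine more per length in meiosis than long ones, and the breaks that start recombination form after the DNA around them has been copied.

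The deposited values were ratios at positions 2.5 kb apart in sacCer2 coordinates. Values were present at 7 times from 1 to 4 hr, in 42 of 48 samples, and the 6 samples at 0 hr were not analysed here. The sources used here do not name the denominator of the ratios, and the sequencing depth is unknown. Ratios ran from 0.549 to 1.47 over the series, from 0.754 to 1.42 on chromosome I and from 0.820 to 1.32 on chromosome IX. Up to its last listed position, chromosome I lacked 6 positions, of which 5 formed a run from 15000 to 25000. Chromosome IX lacked the 9 positions from 2500 to 22500. Positions missing beyond the last listed one were not counted, because no chromosome length of the build was used. Right ends, right arms and last windows below stop at the last listed position. Each value below is log2 of the ratio over the median ratio of its sample, so 0 is the median position of the genome. The mean level is the average from 1 to 4 hr, and the rise after 1 hr is the average from 2 to 4 hr minus the value at 1 hr in the same culture. A denominator shared by the times of a culture drops out of the rise and not out of the mean level.

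Chromosome I stood above the genome median as a whole in every culture, and chromosome IX lay close to it. The mean level of chromosome I was 0.112 (ARS+) and 0.106 (ars∆) in wild type, 0.158 and 0.15 in DDK OP, and 0.038 and 0.092 in tof1∆. The 6 values were all positive, with the DDK OP cultures highest and tof1∆ ARS+ lowest. Their mean was 0.109 ± 0.044 (SD, n = 6), a ratio of 1.08 to the median position. On chromosome IX the mean level was -0.0083 (ARS+) and 0.0053 (ars∆) in wild type, -0.0017 and 0.0043 in DDK OP, and -0.0027 and 0.014 in tof1∆. These 6 values fell on both sides of 0, negative in the ARS+ cultures and positive in the ars∆ cultures, and averaged 0.0019 ± 0.0079 (SD, n = 6). The highest value of IX was below the lowest of I.

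Chromosome I exceeded chromosome IX by 0.107 ± 0.044 (SD, n = 6) in mean level, in 6 of 6 cultures (exact two-sided sign-flip permutation p = 0.031, the smallest that 6 cultures allow; adjusted p = 0.047 over 3 comparisons). The difference ran from 0.040 in tof1∆ ARS+ to 0.160 in DDK OP ARS+. Against the other 14 chromosomes, I was higher by 0.109 ± 0.043 (SD, n = 6), again in 6 of 6 cultures (exact permutation p = 0.031, adjusted p = 0.047). Chromosome IX differed from the other 14 by 0.0019 ± 0.0077 (SD, n = 6), with 3 cultures on each side (exact permutation p = 0.59), and its sign turned when the outer 30 kb of every chromosome were left out (-0.00019). The excess of I over IX and that over the other 14 are nearly the same quantity, since IX lay near the other 14. Their adjusted p under the threshold rests on both reaching the smallest exact permutation p. The cultures are of 6 different strains, so these tests measure the spread between strains and cultures together.

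**Figure D1:**
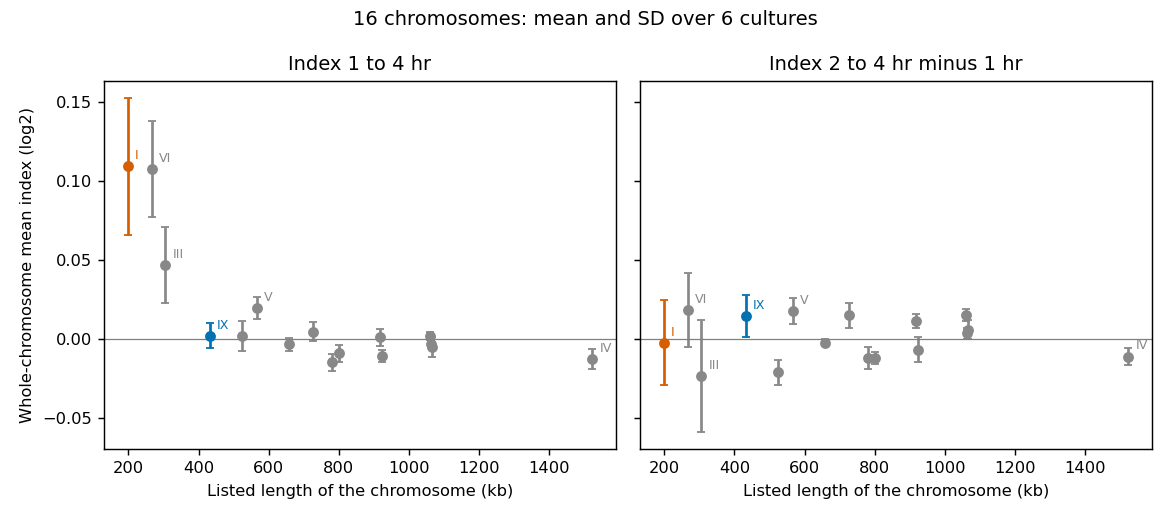
Whole-chromosome mean of the log2 ratio against the listed length of the chromosome in kb, for the mean level from 1 to 4 hr and for the rise after 1 hr; points are means of 6 cultures and bars are SD. Chromosomes I (0.109) and VI (0.108) stand above the others in mean level and IX (0.0019) lies near 0, while in the rise I (-0.0025) falls below IX (0.014).

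Among the 16 chromosomes, I ranked first in mean level in 3 cultures and second in 3, and chromosome VI took the other of these ranks each time. Chromosome VI had a mean level of 0.108 ± 0.031 (SD, n = 6) and III, always next after them, 0.047 ± 0.024 (SD, n = 6). Chromosome IX ranked between 6 and 12. Chromosome V, which is longer than IX, was above it in 6 of 6 cultures and had a mean level of 0.020 ± 0.0073 (SD, n = 6). Over the 16 chromosomes, mean level and length were related with Pearson's r = -0.71 and Spearman's rho = -0.77, and with -0.65 and -0.73 without chromosome I. This is a description over 16 chromosomes that share the same libraries.

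In the rise after 1 hr, no difference between chromosome I, chromosome IX and the other 14 passed the test. On chromosome I the rise was 0.028 and 0.031 in wild type, 0.00047 and -0.021 in DDK OP, and -0.032 and -0.022 in tof1∆, with ARS+ named before ars∆. The wild-type cultures were the highest of the 6, and the mean was -0.0025 ± 0.027 (SD, n = 6). Chromosome IX had values of 0.014 and 0.024 in wild type, -0.011 and 0.023 in DDK OP and 0.021 and 0.016 in tof1∆, ARS+ first. All but DDK OP ARS+ were positive, and the mean was 0.014 ± 0.013 (SD, n = 6). The difference of I minus IX was -0.017 ± 0.031 (SD, n = 6), positive in 3 cultures (exact permutation p = 0.25, adjusted p = 0.375). With the times of 2 to 3 hr in place of 2 to 4 hr it was -0.00085, and without tof1∆ ARS+ it was -0.0098. Chromosome I differed from the other 14 by -0.0024 ± 0.027 (SD, n = 6, exact permutation p = 0.91) and IX by 0.015 ± 0.014 (SD, n = 6, exact permutation p = 0.063, adjusted p = 0.19), positive in 5 of 6 cultures. Chromosome I ranked second of 16 in both wild-type cultures and between 8 and 16 elsewhere, while IX ranked first in DDK OP ars∆ and tof1∆ ARS+ and 14 in DDK OP ARS+. Over the 16 chromosomes, rise and length had r = -0.017 and rho = -0.044, as a description.

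The excess of chromosome I was present in the first sample with values. At 1 hr its level was 0.088 (ARS+) and 0.078 (ars∆) in wild type, 0.163 and 0.167 in DDK OP, and 0.059 and 0.107 in tof1∆. The order of backgrounds seen in the mean level was thus already there at 1 hr for DDK OP, whose 2 cultures were above the other 4. Averaged over cultures, chromosome I was at 0.110 ± 0.045 (SD, n = 6) at 1 hr, 0.116 ± 0.028 at 1.5 hr, 0.115 ± 0.038 at 2 hr, 0.130 ± 0.036 at 2.5 hr, 0.124 ± 0.038 at 3 hr, 0.104 ± 0.062 at 3.5 hr and 0.067 ± 0.073 at 4 hr. The level stayed between 0.110 and 0.130 up to 3 hr and was lower at 4 hr than at 2.5 hr in 6 of 6 cultures, by between 0.017 in DDK OP ARS+ and 0.13 in tof1∆ ARS+. The tof1∆ ARS+ culture alone reached values below 0, -0.0057 at 3.5 hr and -0.054 at 4 hr.

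**Figure D2:**
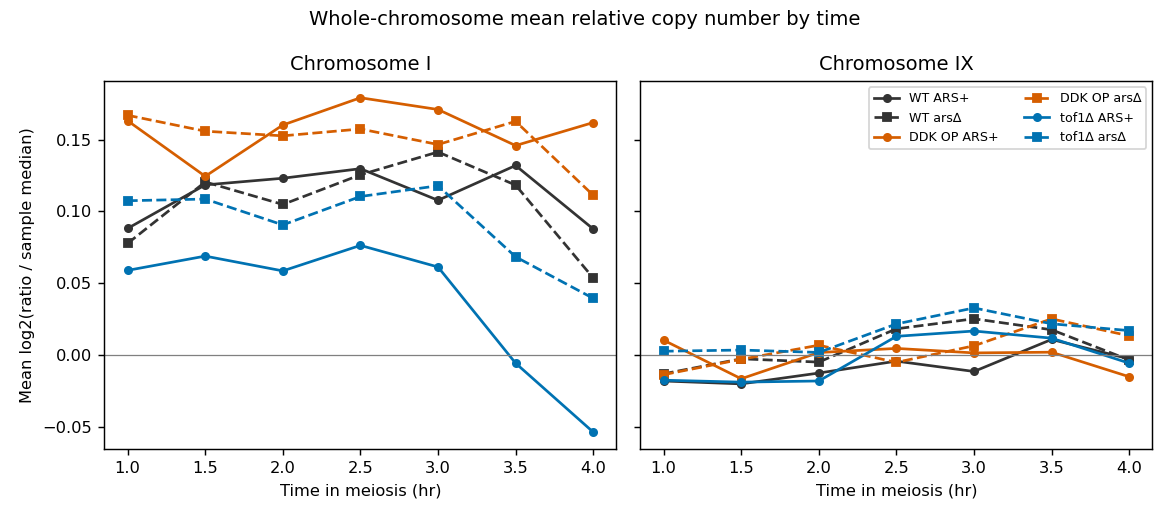
Whole-chromosome mean of the log2 ratio over the sample median (vertical axis) at each time in meiosis in hr (horizontal axis) for chromosomes I and IX, with 1 line per culture in 6 cultures. Chromosome I lies above IX in every culture from 1 to 3 hr, and its tof1∆ ARS+ line drops to -0.054 at 4 hr.

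Chromosome IX moved less over time. Its mean was -0.0082 ± 0.012 (SD, n = 6) at 1 hr, -0.0096 ± 0.010 at 1.5 hr, -0.0042 ± 0.0095 at 2 hr, 0.0080 ± 0.011 at 2.5 hr, 0.012 ± 0.016 at 3 hr, 0.015 ± 0.0084 at 3.5 hr and 0.00057 ± 0.012 at 4 hr. The values were positive in 1 of 6 cultures at 1.5 hr and in 6 of 6 at 3.5 hr, when they ran from 0.0020 to 0.025. The range over the 7 times was 0.034 ± 0.0048 (SD, n = 6) on IX and 0.075 ± 0.031 (SD, n = 6) on I.

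The difference between the chromosomes was 0.119 at 1 hr, 0.126 at 1.5 hr, 0.119 at 2 hr, 0.122 at 2.5 hr and 0.112 at 3 hr, with an SD of 0.026 to 0.043. At each of these times I was above IX in 6 of 6 cultures (exact permutation p = 0.031, adjusted p = 0.044 over 7 times). It was 0.089 ± 0.063 (SD, n = 6) at 3.5 hr and 0.066 ± 0.076 (SD, n = 6) at 4 hr, with 5 of 6 cultures on that side at both times (exact permutation p = 0.063 and 0.094, adjusted p = 0.073 and 0.094). The exception at both times was tof1∆ ARS+.

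Along chromosome I the level was higher towards the right, where the centromere lies. In windows of 10 kb, 13 of the 20 windows of chromosome I were above 0 in all 6 cultures and the other 7 in 5 of 6. No such count is given here for chromosome VI, whose mean level (0.108) was close to that of I (0.109), or for the whole genome. The count is therefore not shown to be particular to I. The 5 windows of the first 50 kb averaged 0.076 ± 0.038 (SD, n = 6) in mean level and the next 5 0.084 ± 0.040. Those from 100 to 150 kb averaged 0.125 ± 0.052 and the last 5 0.142 ± 0.048. Relative to the chromosome's own mean, both stretches right of 100 kb were higher in 6 of 6 cultures.

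The window 160001 to 170000, next to the centromere, had the highest mean level of chromosome I. Its values were 0.190 (ARS+) and 0.283 (ars∆) in wild type, 0.247 and 0.204 in DDK OP, and 0.116 and 0.178 in tof1∆. All 6 values were above their chromosome's mean, and this window holds 3 listed positions rather than 4. It was the highest of the 20 in the mean of the ARS+ cultures (0.18 ± 0.066, SD, n = 3), which served to choose it, and ranked first in the ars∆ cultures, which did not (0.22 ± 0.054, SD, n = 3; the median window there was at 0.119). Over time the mean of this window went from 0.14 ± 0.067 (SD, n = 6) at 1 hr to 0.27 ± 0.073 at 3 hr and 0.16 ± 0.12 at 4 hr. The windows 170001 to 180000 (0.15 in ARS+ and 0.19 in ars∆, rank 2) and 150001 to 160000, which holds the centromere (0.15 and 0.13, rank 6), came next. Just outside the choice was 130001 to 140000, at 0.14 in both.

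The lowest windows of chromosome I lay near the ends of its listed part. They were 10001 to 20000 (1 listed position), 20001 to 30000 (2 listed positions) and 190001 to 200000 (3 listed positions), at 0.027, 0.028 and 0.059 in the ARS+ cultures. In the ars∆ cultures these windows were at 0.080, 0.077 and 0.125, ranks 16, 17 and 8 of 20, so the last one was not among the low windows there. The next in line, 90001 to 100000, was at 0.066 in ARS+ and 0.071 in ars∆. The first window, 1 to 10000, had a mean level of 0.064 ± 0.057 (SD, n = 6), with 0.105 at 1 hr and 0.041 at 3.5 hr.

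**Figure D3:**
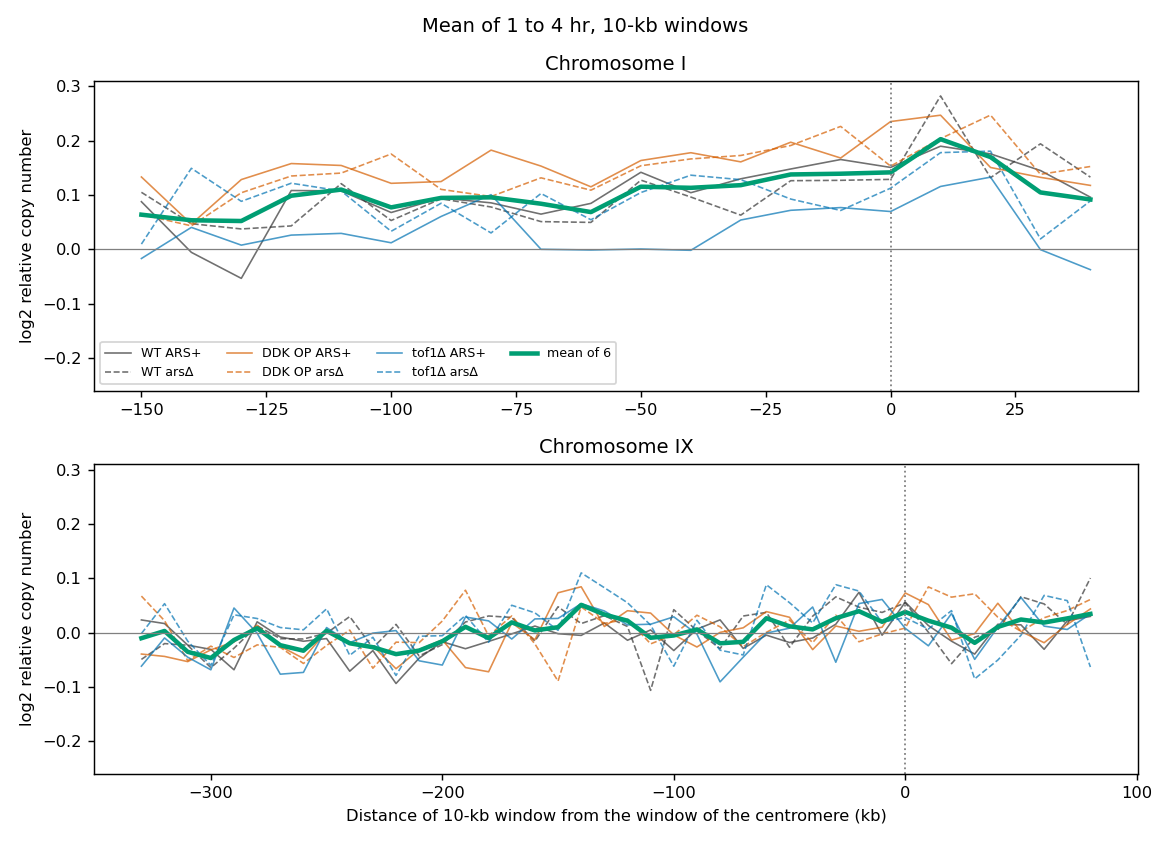
Mean level from 1 to 4 hr (log2 ratio over the sample median) of each 10-kb window of chromosomes I and IX against its distance in kb from the window of the centromere, with 1 thin line per culture and the mean of 6 cultures in bold. Chromosome I lies above 0 with its peak 10 kb right of the centromere window (0.203), and IX moves about 0 with a dip of -0.047 at 300 kb left of it.

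Centromeric windows were higher than the rest of their chromosome in all 6 cultures on both chromosomes, and neither difference passed the threshold after adjustment. Both had the smallest p that 6 cultures allow. Their adjusted p was therefore set by how many of the 6 comparisons reached that p. On chromosome I the 3 windows within 10 kb of the centromere averaged 0.161 ± 0.048 (SD, n = 6) and the other 17 averaged 0.097 ± 0.041. The difference was 0.064 ± 0.020, from 0.031 in tof1∆ ars∆ to 0.088 in wild type ars∆ (exact permutation p = 0.031 with n = 6, adjusted p = 0.063 over 6 comparisons). It was 0.037 (adjusted exact permutation p = 0.094) without the windows of fewer than 4 listed positions, among them the highest window, 160001 to 170000. On chromosome IX the 3 centromeric windows averaged 0.027 ± 0.011 and the other 39 averaged 0.00051 ± 0.0080. The difference was 0.026 ± 0.015, from 0.0050 in tof1∆ ars∆ to 0.049 in DDK OP ARS+ (exact permutation p = 0.031 with n = 6, adjusted p = 0.063). In the rise after 1 hr the centromeric difference was 0.071 ± 0.034 (SD, n = 6) on I and 0.057 ± 0.038 (SD, n = 6) on IX, positive in 6 of 6 cultures for each (exact permutation p = 0.031, adjusted p = 0.063).

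The arms of chromosome I differed in the same direction in every culture. The 15 windows of the left arm averaged 0.095 ± 0.041 (SD, n = 6) in mean level and the 4 listed windows of the right arm 0.142 ± 0.051. Left minus right was -0.047 ± 0.033, from -0.104 in wild type ars∆ to -0.016 in DDK OP ARS+ (exact permutation p = 0.031 with n = 6, adjusted p = 0.063). With the outer 30 kb of the chromosome left out, the right arm is 2 positions of window 160001 to 170000 alone, and left minus right was -0.10, a value that rests on that window. On chromosome IX the 33 windows of the left arm were lower than the 8 of the right by 0.018 ± 0.023 (SD, n = 6), in 5 of 6 cultures (exact permutation p = 0.16).

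The ends of the listed parts of the chromosomes gave no common pattern. The right end was counted back from the last listed position, 197500 on I and 432500 on IX. How far the chromosomes go on beyond it was not checked. On chromosome I this right end began with window 170001 to 180000, at 0.170 ± 0.043 (SD, n = 6), among the highest of I. The outer 30 kb of chromosome I were below the rest by 0.025 ± 0.021 (SD, n = 6) in 5 of 6 cultures (exact permutation p = 0.063, adjusted p = 0.075). This sign turned to 0.0055 when windows with fewer than 4 listed positions were left out. The outer 30 kb of chromosome IX, with 4 windows because its first 9 positions are not listed, were above the rest by 0.016 ± 0.019 (SD, n = 6) in 5 of 6 cultures (exact permutation p = 0.063, adjusted p = 0.075). Both differences missed the threshold.

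In the rise after 1 hr chromosome I had a gradient from left to right. The first 50 kb were below the chromosome's own mean by 0.039 ± 0.015 (SD, n = 6) and the next 50 kb by 0.029 ± 0.018, each in 6 of 6 cultures. The stretch from 100 to 150 kb was above it by 0.019 ± 0.0074 and the last 50 kb by 0.049 ± 0.020, again in 6 of 6 cultures. Left minus right arm was -0.064 ± 0.035 (SD, n = 6; exact permutation p = 0.031, adjusted p = 0.063). The window 160001 to 170000 again ranked first, at 0.067 ± 0.030 (SD, n = 3) over the ARS+ cultures and 0.078 ± 0.087 over the ars∆ cultures, of which DDK OP was at -0.021. The lowest windows in the ARS+ cultures were 1 to 10000 (-0.057), 30001 to 40000 (-0.048) and 50001 to 60000 (-0.046). In the ars∆ cultures these were at -0.054, -0.054 and -0.025, ranks 18, 17 and 12 of 20.

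**Figure D4:**
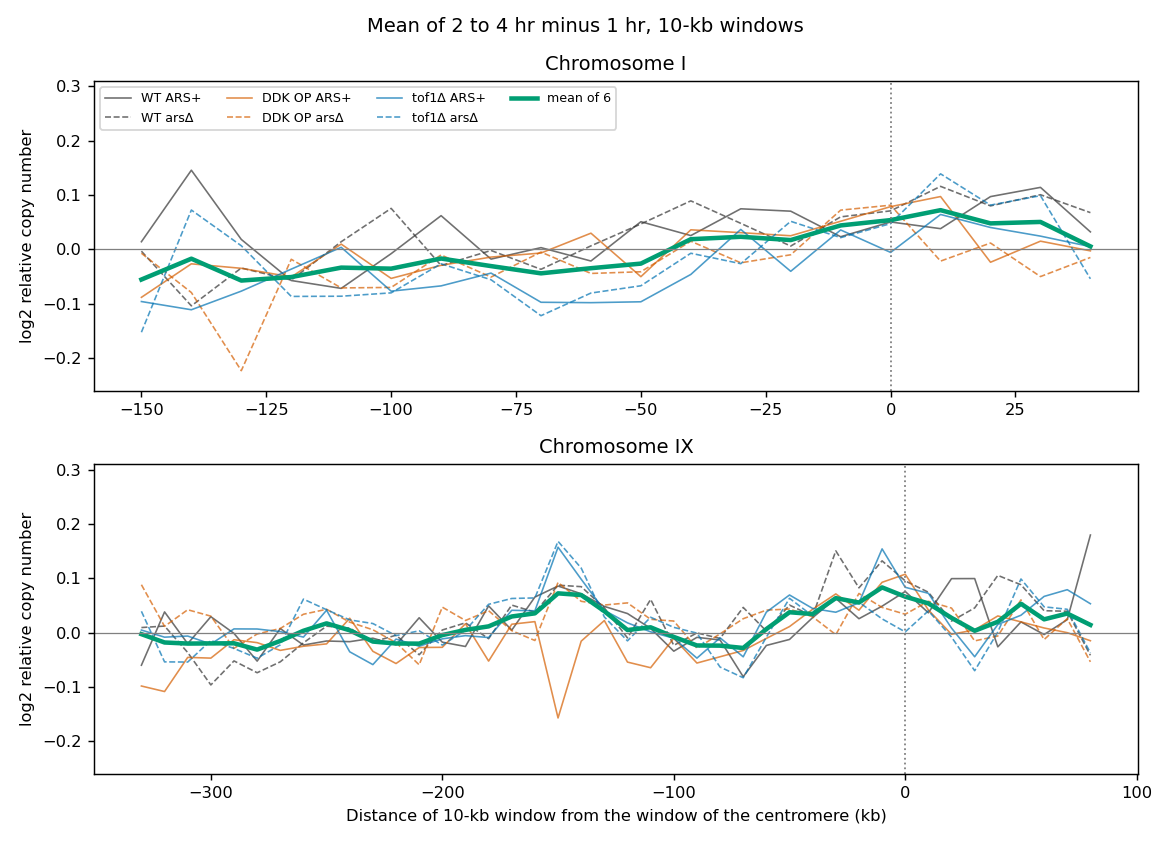
Rise after 1 hr (mean of 2 to 4 hr minus 1 hr, log2) of each 10-kb window of chromosomes I and IX against its distance in kb from the window of the centromere, with 1 thin line per culture and the mean of 6 cultures in bold. On I the line climbs from -0.055 in the first window to 0.072 at 10 kb right of the centromere window, and on IX it has peaks of 0.072 at 150 kb left and 0.083 at 10 kb left of the centromere window.

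Chromosome IX had alternating high and low stretches of smaller size. The edges of these stretches are uneven, followed no fixed rule and were set with results of these data known. The counts of cultures below therefore describe the stretches and do not test them. In mean level, 20 to 100 kb averaged -0.019 ± 0.015 (SD, n = 6) and 100 to 180 kb -0.016 ± 0.017, both below the chromosome's own mean in 6 of 6 cultures. The stretch from 180 to 240 kb averaged 0.023 ± 0.021 and that from 300 to 370 kb, which holds the centromere, 0.023 ± 0.010, with values above 0 in 6 of 6 cultures. Between these, 240 to 300 kb was at -0.0033 ± 0.0080, and the stretch beyond 370 kb was at 0.015 ± 0.017. In the rise after 1 hr, 300 to 370 kb was above the chromosome's mean by 0.042 ± 0.024 and 240 to 300 kb below it by 0.026 ± 0.014, each in 6 of 6 cultures.

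Of the 42 windows of chromosome IX, 3 were above 0 in mean level in all 6 cultures (220001 to 230000, 350001 to 360000 and 420001 to 430000) and 4 were below 0 in all. The window with the centromere, 350001 to 360000, had 0.056 and 0.055 in the wild-type cultures, 0.073 and 0.0083 in DDK OP and 0.0078 and 0.028 in tof1∆, ARS+ first. It was the highest window of IX in the ARS+ cultures (0.046 ± 0.034, SD, n = 3) and ranked 13 of 42 in the ars∆ cultures (0.030 ± 0.023, SD, n = 3). The window 210001 to 220000 was at 0.044 ± 0.045 in ARS+ and ranked second in ars∆ (0.058 ± 0.048). Its mean over 6 cultures went from 0.00064 at 1 hr to 0.097 ± 0.065 (SD, n = 6) at 3 hr. Window 330001 to 340000 was at 0.043 in ARS+ and 0.035 in ars∆ (rank 9). Just outside the choice was the last window, 430001 to 440000, which holds 1 position, at 0.036 in ARS+ and 0.033 in ars∆.

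The lowest windows of chromosome IX in the ARS+ cultures were 130001 to 140000, 90001 to 100000 and 50001 to 60000, at -0.052, -0.046 and -0.044. In the ars∆ cultures they were at -0.027, -0.021 and -0.050, ranks 38, 36 and 42 of 42. Window 50001 to 60000 was negative in every culture, between -0.069 in tof1∆ ARS+ and -0.025 in DDK OP ars∆. The next in line, 140001 to 150000, was at -0.044 in ARS+ and -0.023 in ars∆.

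In the rise after 1 hr the highest window of IX lay beside the centromere, at 340001 to 350000. Its rise was 0.049 and 0.132 in wild type, 0.092 and 0.046 in DDK OP and 0.154 and 0.025 in tof1∆, ARS+ first. All 6 values were positive, and the level of this window went from -0.044 ± 0.027 (SD, n = 6) at 1 hr to 0.057 ± 0.051 at 3 hr. In the ars∆ cultures it ranked 6 of 42. The window 430001 to 440000, also chosen in the ARS+ cultures (0.073 ± 0.099, SD, n = 3), ranked last in the ars∆ cultures (-0.044 ± 0.0086). The low windows 280001 to 290000 (-0.053), 20001 to 30000 (-0.051) and 260001 to 270000 (-0.037) of the ARS+ cultures had ranks 30, 9 and 32 in ars∆. None of these 3 low windows was among the 10 lowest of the ars∆ cultures.

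The window 200001 to 210000 of IX differed in 1 culture. Its rise was 0.086 and 0.087 in wild type, 0.092 in DDK OP ars∆, 0.157 and 0.168 in tof1∆ and -0.157 in DDK OP ARS+. At 1 hr this culture was at 0.223 in the window and the other 5 lay between -0.17 and -0.026.

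**Figure D5:**
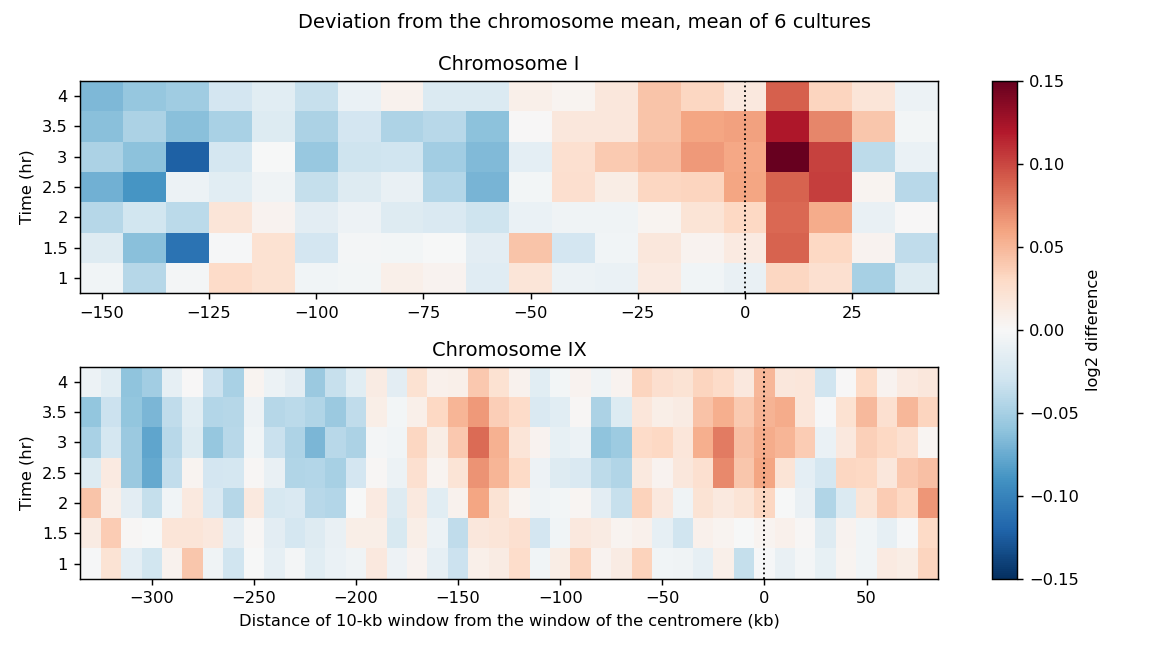
Difference of each 10-kb window from the mean of its chromosome (colour, log2, mean of 6 cultures) by time in meiosis in hr (vertical axis) and distance in kb from the window of the centromere (dotted line). Window 160001 to 170000 of I goes from 0.032 at 1 hr to 0.149 at 3 hr, and window 210001 to 220000 of IX goes from 0.0089 to 0.085.

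In the mean of the 6 cultures, the contrast along both chromosomes was greatest at 3 hr. The SD over windows was 0.052 ± 0.010 (SD over cultures, n = 6) at 1 hr, 0.081 ± 0.012 at 3 hr and 0.057 ± 0.0068 at 4 hr on chromosome I. On IX it was 0.048 ± 0.0037, 0.062 ± 0.015 and 0.048 ± 0.0038 at the same times, against 0.045, 0.070 and 0.061 on the other 14 chromosomes. The spread was larger at 3 hr than at 1 hr in 6 of 6 cultures on I and in 4 of 6 on IX. Each sample was also regressed on the mean rise of the 4 cultures of the other backgrounds, over the windows of the chromosome. The slope was 0.030 ± 0.46 (SD, n = 6) at 1 hr, 1.14 ± 0.34 at 3 hr and 0.62 ± 0.17 at 4 hr on chromosome I. On chromosome IX it was -0.019 ± 0.24, 1.01 ± 0.49 and 0.48 ± 0.26. The rise subtracts the 1 hr values, which favours slopes near 0 at 1 hr.

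The profile of chromosome I repeated between cultures more closely than that of IX in mean level. Over the 15 pairs of cultures the median Pearson's r was 0.47 on I (range 0.21 to 0.72, 20 windows) and 0.23 on IX (range 0.034 to 0.45, 42 windows), ranks 1 and 13 of the 16 chromosomes. In the rise after 1 hr the medians were 0.38 on I and 0.34 on IX, ranks 13 and 14. These correlations are descriptions, since neighbouring windows may not be independent and cultures of a pair may share a denominator.

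The strains were compared to see whether the level of these chromosomes differs with the kinase, with Tof1 and with the deletion of origins elsewhere. On chromosome I the ars∆ culture minus its ARS+ partner gave -0.0064 for wild type, -0.0075 for DDK OP and 0.054 for tof1∆. On chromosome IX it gave 0.014, 0.0059 and 0.017. On IX the 3 pairs had the same sign, and the mean was 0.012 ± 0.0057 (SD, n = 3 pairs, exact permutation p = 0.25, the smallest possible). The difference of I minus IX changed with ars deletion by 0.0011 ± 0.031 (SD, n = 3 pairs, exact permutation p = 1).

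In mean level, chromosome I was higher in DDK OP than in wild type by 0.046 among ARS+ and 0.044 among ars∆ cultures, and lower in tof1∆ by 0.075 and 0.014. Both comparisons use the same 2 wild-type cultures. With limma over the 16 whole-chromosome means, the DDK OP difference was 0.045 (SE 0.018, adjusted p = 0.52) and the tof1∆ difference -0.044 (SE 0.018, adjusted p = 0.76). No chromosome was called in mean level in either comparison (0% of 16), also at an unadjusted p of 0.05. On chromosome IX the differences by limma were 0.0028 for DDK OP (adjusted p = 0.94) and 0.0074 for tof1∆ (adjusted p = 0.86).

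The rise of chromosome I after 1 hr was lower in tof1∆ than in wild type, by 0.059 among ARS+ and 0.053 among ars∆ cultures. With limma the difference was -0.056 (SE 0.0092, adjusted p = 0.042), 1 of 2 chromosomes called lower in tof1∆ (12.5% of 16), beside 1 called higher (6.25%). At an unadjusted limma p of 0.05, 6 of 16 chromosomes (37.5%) passed in this comparison. On chromosome I the tof1∆ cultures (-0.032 and -0.022) did not overlap the wild-type cultures (0.028 and 0.031). Such a separation was not particular to I. On VI the rise was 0.038 and 0.052 in wild type and -0.0084 and -0.00076 in tof1∆, ARS+ first. The tof1∆ cultures also lay below both wild-type cultures on V, X and XIII, and above both on IV, XIV, XV and XVI. The call was lost without any 1 of the 4 cultures compared, with adjusted p = 0.21 without wild type ARS+, 0.23 without wild type ars∆, 0.44 without tof1∆ ARS+ and 0.28 without tof1∆ ars∆, at differences from -0.066 to -0.047. In DDK OP the rise of chromosome I was lower than in wild type by 0.027 and 0.052 (limma difference -0.040, SE 0.0092, adjusted p = 0.25), where the mean level was higher. At 1 hr the DDK OP cultures stood at 0.163 and 0.167 and the wild-type cultures at 0.088 and 0.078, so the starting value and the rise moved in opposite directions, and the part of the 1 hr values in this result was not tested. On chromosome IX the rise differed by -0.013 in DDK OP (adjusted p = 0.63) and by -0.00014 in tof1∆ (adjusted p = 0.99) with limma.

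Over 10-kb windows with limma, 1 window of the 62 on both chromosomes was called in mean level. It was 180001 to 190000 of chromosome I, lower in tof1∆ than in wild type (0.256% of 1174 windows were called lower). Its mean level was 0.145 and 0.194 in wild type, 0.133 and 0.138 in DDK OP and -0.00043 and 0.019 in tof1∆, ARS+ first. The tof1∆ cultures lay below all others, and the difference was -0.16 (SE 0.034, adjusted p = 0.012). At 1 hr the window was already at -0.030 and -0.080 in tof1∆, against 0.047 and 0.107 in wild type, and its rise differed by -0.046 (limma adjusted p = 0.82). The call was lost without any 1 of the wild-type or tof1∆ cultures, with eBayes fitted to a trend, and in 5-kb windows.

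No window of I or IX was called for DDK OP (0.0852% of all windows called) or for ars deletion (0.17% called), and in the rise after 1 hr none was called in any of the 3 comparisons (0.17%, 0.511% and, for tof1∆, 0% of all windows). At an unadjusted limma p of 0.05, 3 windows of I and 0 of IX passed in mean level for DDK OP, 7 and 4 for tof1∆, and 1 and 3 for ars deletion. For DDK OP these were 15% of the windows of I and 0% of those of IX, against 5.79% of all windows. For tof1∆ they were 35% and 9.52% against 5.62%, and for ars deletion 5% and 7.14% against 4.86%. The windows with the lowest p were 20001 to 30000 of I for DDK OP (0.12, adjusted p = 0.23, 2 listed positions) and 320001 to 330000 of IX for ars deletion (0.071, adjusted p = 0.80).

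The windows of chromosome I shifted mostly as the whole chromosome did, whose mean is taken over the same positions, so these counts are no separate result. For DDK OP 18 of 20 windows were higher in mean level, with a median difference of 0.048. Over all 1174 windows the median was -0.000014 and 50% were lower. In the rise the direction was the opposite, with 15 of 20 lower and a median of -0.038, where 49.9% of all windows were lower. For tof1∆ 17 of 20 were lower in mean level (median -0.039, where 49.9% of all windows were lower). In the rise 19 of 20 were lower (median -0.043, where 49.7% of all windows were lower). On IX the windows were split, with 19 higher and 23 lower for DDK OP and 22 higher and 20 lower for tof1∆ in mean level.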

How the data were processed

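The authors deposited 1 table per strain with ratios at 2.5-kb positions. Per the submitters' processing notes, reads were aligned to sacCer2 by BWA; the sources used here give neither its version nor the denominator. From these ratios log2 of the ratio over the sample median was computed, averaged over times to the mean level and the rise, and over positions to chromosomes or 10-kb windows (1174 in all). The tables hold no counts, so no counting interval is given and no count model was used. The unit of replication was the culture, 6 in all. Spearman's rho was computed with scipy 1.17.1. Differences within cultures were tested by exact sign-flip permutation, with all sign patterns enumerated in numpy 2.4.6. Strains were compared with limma 3.58.1 (R 4.3.3, lmFit and eBayes with background and ars state, 2 residual degrees of freedom). The p-values of both were Benjamini-Hochberg adjusted, with a threshold of 0.05. Both the permutation test and limma were tested on simulated data. Centromeres were placed by rounded position. Windows named were the 3 highest and 3 lowest per chromosome over the ARS+ cultures on each index, the end and centromere windows, those called, and those of lowest p where none was; window 200001 to 210000 of IX and others named for their counts were chosen after their values were seen. The members, lists, stretches and tests were chosen with earlier results of these data known. Alternatives covered centring, scale, times, window size, filters and left-out cultures.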

Additional observations from a re-analysis of the deposited data

Results flagged for a closer look

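Among 60 values examined over the 6 cultures for a single culture far from the other 5, 5 stood out, where chance gives about 1 in 20, and the 6 cultures are of 6 strains. The rise of chromosome IX after 1 hr was lowest in DDK OP ARS+ at -0.0114, and relative to the other 14 chromosomes at -0.0121 in that culture. The centromeric excess of chromosome I in the rise was lowest in wild type ARS+ at 0.0060. In mean level, window 10001 to 20000 of chromosome I, with 1 listed position, was highest in tof1∆ ars∆ at 0.149, and window 190001 to 200000 was lowest in tof1∆ ARS+ at -0.0373.

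In 4 cases the cultures of 2 backgrounds had opposite signs, a difference that was not tested in itself. With 2 cultures per background such a pattern arises easily by chance. The number of cases that chance would give was not computed, so the count of 4 is not a result. The cases are also not independent, since the rise of chromosome I enters all but the last. In the rise, I minus IX was positive in both wild-type and negative in both tof1∆ cultures, 0.0561 apart. Chromosome I minus the other 14 was likewise positive in wild type and negative in tof1∆, 0.0559 apart. For DDK OP the distance from wild type was 0.0395, with DDK OP ars∆ at -0.020 and DDK OP ARS+ at -0.00021, which is close to 0. The outer 30 kb of IX minus the rest of the chromosome were negative in both DDK OP cultures and positive in both tof1∆ cultures (DDK OP minus tof1∆ -0.0339).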

How the results depend on the processing

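The unknown denominator and depth, and 1 culture per strain, limit these results. No replicate block could be fitted because every strain and time has 1 sample; ARS+ and ars∆ cultures were paired by background. The excess of chromosome I over IX and over the other 14 in mean level kept its side of the threshold under scale, times, summary and position filters; centring of a sample cancels in these differences and tests nothing. Leaving out 1 culture, where 5 cultures cannot pass 0.05, gave 0.097 to 0.121 and 0.0998 to 0.124. With the outer 30 kb left out, IX minus the others was -0.00019. The centromeric difference then was 0.061 on I and 0.027 on IX, and left minus right arm of I -0.10, where the right arm is 2 positions of window 160001 to 170000 alone. These passed the threshold (adjusted p = 0.042) with 4 tests in the family in place of 6. Leaving out a culture gave -0.00055 to 0.0039 for IX minus the others and -0.0092 to 0.0033 for the rise of I minus the others, which was 0.012 with middle times. Middle times gave -0.00085 for the rise of I minus IX. With full windows only, the outer 30 kb of I were at 0.0055, the centromeric difference of I at 0.037 and left minus right arm of I at -0.036 (adjusted p = 0.094 for the latter pair). By limma, the rise in place of the mean level gave -0.040 for I and -0.013 for IX in DDK OP, -0.056 and -0.00014 in tof1∆, and -0.0029 for I in ars deletion. Leaving out a culture gave 0.029 to 0.061 and -0.0019 to 0.0076 for DDK OP, -0.075 to -0.014 for I in tof1∆, and -0.0069 to 0.024 for I in ars deletion. For I the DDK OP difference passed without DDK OP ars∆ (limma adjusted p = 0.0022) or either tof1∆ culture (0.029), and the tof1∆ difference without either DDK OP culture (0.0060) or tof1∆ ars∆ (0.019). Windows called for tof1∆ were 0 with the rise, with an eBayes trend and in 5-kb windows, and 0 to 1 without a culture. The cause was not tested.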
